A study of Mus musculus with 8 samples.

Results

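The chemokines and their receptors were followed in whole mouse aorta during angiotensin II (AngII) infusion and after its end. Members were taken by symbol, as genes whose name starts with Ccl, Cxcl, Ccr or Cxcr directly followed by a digit, with a minimum of 10 counts summed over all libraries. Of 35896 genes in the table, 61 carried such a symbol and 47 reached the minimum, 33 of them ligands and 14 receptors. The 8 libraries were made from 16 male C57BL6 mice, and each held aortic tissue (a piece of the vessel, without separation of its layers) of 2 pooled mice. Mice of the treated groups received osmotic minipumps at 11 weeks of age that delivered 2.8 mg/kg/d of AngII over 2 weeks. They were killed when infusion stopped (AngII), 2 weeks later (AngII+2W) or 3 weeks later (AngII+3W). CTRL libraries came from untreated littermates of matched age, which the study killed at all 3 time points, and the time point of each CTRL library is not given in the sources used here. Each group had 2 libraries, so that a library and its pool of mice cannot be told apart.

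Chemokines are small secreted proteins that guide the migration of leukocytes. They are named by the spacing of conserved cysteines (CC or CXC), and they act on G protein-coupled receptors of the matching class, most of which bind several ligands. In arteries, the ligands Ccl2 and Ccl7 and their receptor Ccr2 are known for the entry of monocytes from blood, Ccl19 and Ccl21 for the guidance of cells that carry Ccr7 towards lymphatic vessels and lymph nodes, and Cxcl12, the ligand of Cxcr4, for the retention of progenitor cells.

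The libraries held 18130441 to 21498200 counts, at which the floor of 3 counts is 0.140 to 0.165 CPM, counts per 1000000 counts. The members together made up 0.0260% to 0.0686% of the counts of a library. The 6 smooth muscle markers of the aortic wall were all detected, and their summed level was 7238 CPM or higher in CTRL and 1679 to 3846 CPM in the treated groups, 5 of the 6 being lower in AngII than in CTRL. The first AngII+3W library stood apart from the others by its skeletal muscle markers, which summed to 1414 CPM against 4.73 to 73.6 CPM elsewhere. Cardiac muscle markers summed to 5923 CPM in this library, to 5171 and 2268 CPM in CTRL and to 82.9 to 1410 CPM in the rest.

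The level of the members was compared per kilobase of annotated exon (CPM per kb). Averaged over the libraries, Cxcl12 was the most abundant ligand at 20.7 CPM per kb, followed by Ccl6 with 13.6, Ccl21a with 10.3, Ccl8 with 10.2 and the eosinophil attractant Ccl11 with 9.41 CPM per kb. Ccr2 was the most abundant receptor at 3.38 CPM per kb, and Cxcr4 was at 2.72 and Cxcr2, a receptor of neutrophil-attracting ligands, at 1.73 CPM per kb. The order depended on the group. In CTRL, the level of Ccl8 was 2.39 ± 0.126 CPM per kb (SD, n = 2), below that of Ccl11 at 9.04 ± 0.912. In AngII, Ccl8 at 33.7 ± 7.58 CPM per kb was within its own spread of Cxcl12 at 30.6 ± 0.0870. Among receptors, Cxcr4 was above Ccr2 in CTRL (2.44 ± 0.745 and 1.54 ± 0.263 CPM per kb), with a gap close to the spread between libraries, while the mean of Ccr2 was above that of Cxcr4 in the other groups.

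**Figure D1:**
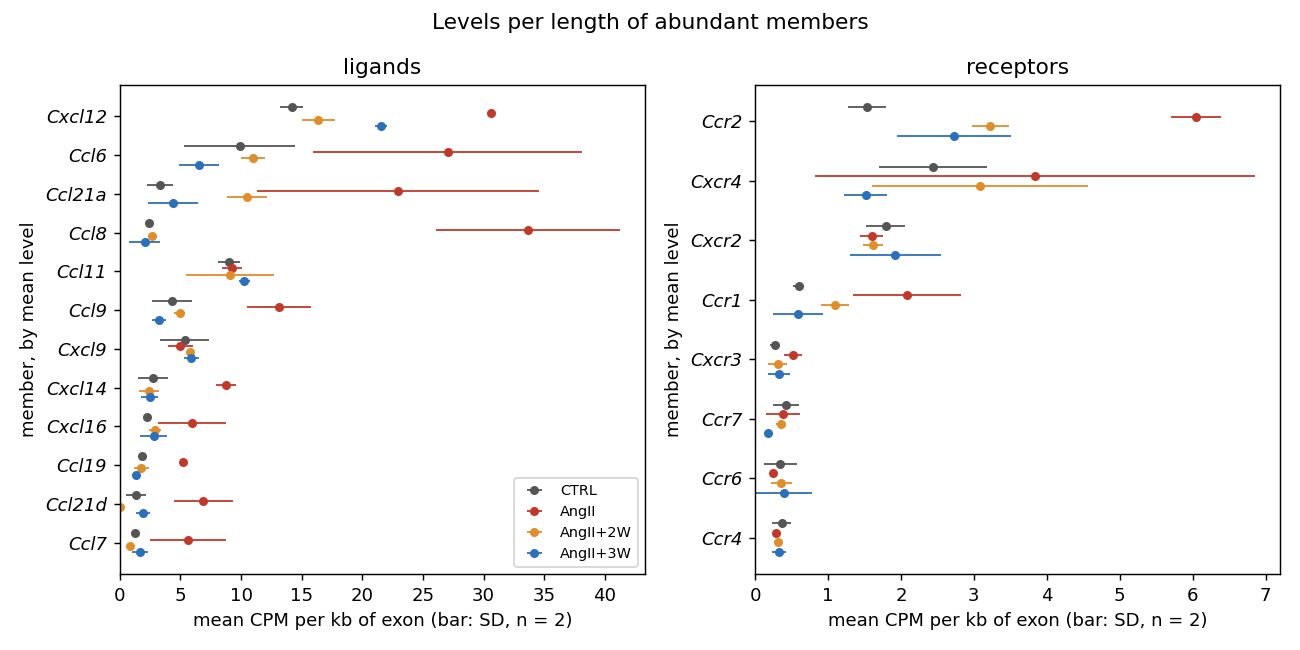
Mean CPM per kilobase of exon of the 12 most abundant ligands (left) and 8 receptors of high level (right), by group (colour), with bars of 1 SD (n = 2). Ccl8 moves from 2.39 CPM per kb in CTRL to 33.7 in AngII, while the group means of Ccl11 lie between 9.04 and 10.3 CPM per kb.

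A further 14 matching genes stayed under the minimum, among them Ccl20 with 0 counts, Ccl1 with 1, Cxcr1 with 3, Ccl26 with 4, Ccr8, known as a receptor of mouse Ccl8, with 7, and Ccl17 with 9 counts over all libraries. The filter on low counts (filterByExpr) kept 41 of the 47 members, 28 ligands and 13 receptors. The 6 members left out were Ccl3, Ccl4, Cxcl15, Ccr3, Cxcl17 and a copy of Ccl21a on an unplaced scaffold. Of these, Cxcl17 had 29 counts in the first AngII+3W library, the one with skeletal muscle markers, and at most 1 count in each of the others.

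The first question was which members differed at the end of the infusion. In AngII, 9 of the 41 members tested were higher than in CTRL and 0 were lower, at FDR below 0.05 (quasi-likelihood test of edgeR, adjusted after Benjamini and Hochberg over the 17182 genes tested). Over all genes tested, 2.90% were higher and 2.20% lower by the same rule. The higher members included the ligands Ccl8, Ccl21a, Ccl7, Cxcl14, Ccl9, Ccl19 and Cxcl12 and the receptor Ccr2. The log2 fold change was above 0 in 33 of the 41 members (48.9% of all genes), with a median of 0.91 against -0.01 over all genes. At an unadjusted p below 0.05, 15 members were higher and 0 lower, beside 10.9% and 9.29% of all genes. Both AngII libraries were above both CTRL libraries in 18 members and below them in 2, beside 24.4% and 24.9% of all genes.

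Single libraries weighed on this count. Without the first CTRL library or without the second AngII library 0 members passed, and 29 and 0 of all genes did. Without the second CTRL library, or without either AngII+2W library, 3 members passed (Ccl8, Ccr2 and Cxcl12), and without the first AngII library 6 passed. Ccl8, Ccr2 and Cxcl12 lost the call only without the first CTRL or the second AngII library, with FDR of at most 0.0673, 0.0841 and 0.0841. Leaving out either AngII+3W library raised the number of members called, though neither belongs to the groups compared. Counts of all genes called are given here only for the fits in which 0 members passed. The other counts were therefore not read as a result about the members.

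**Figure D2:**
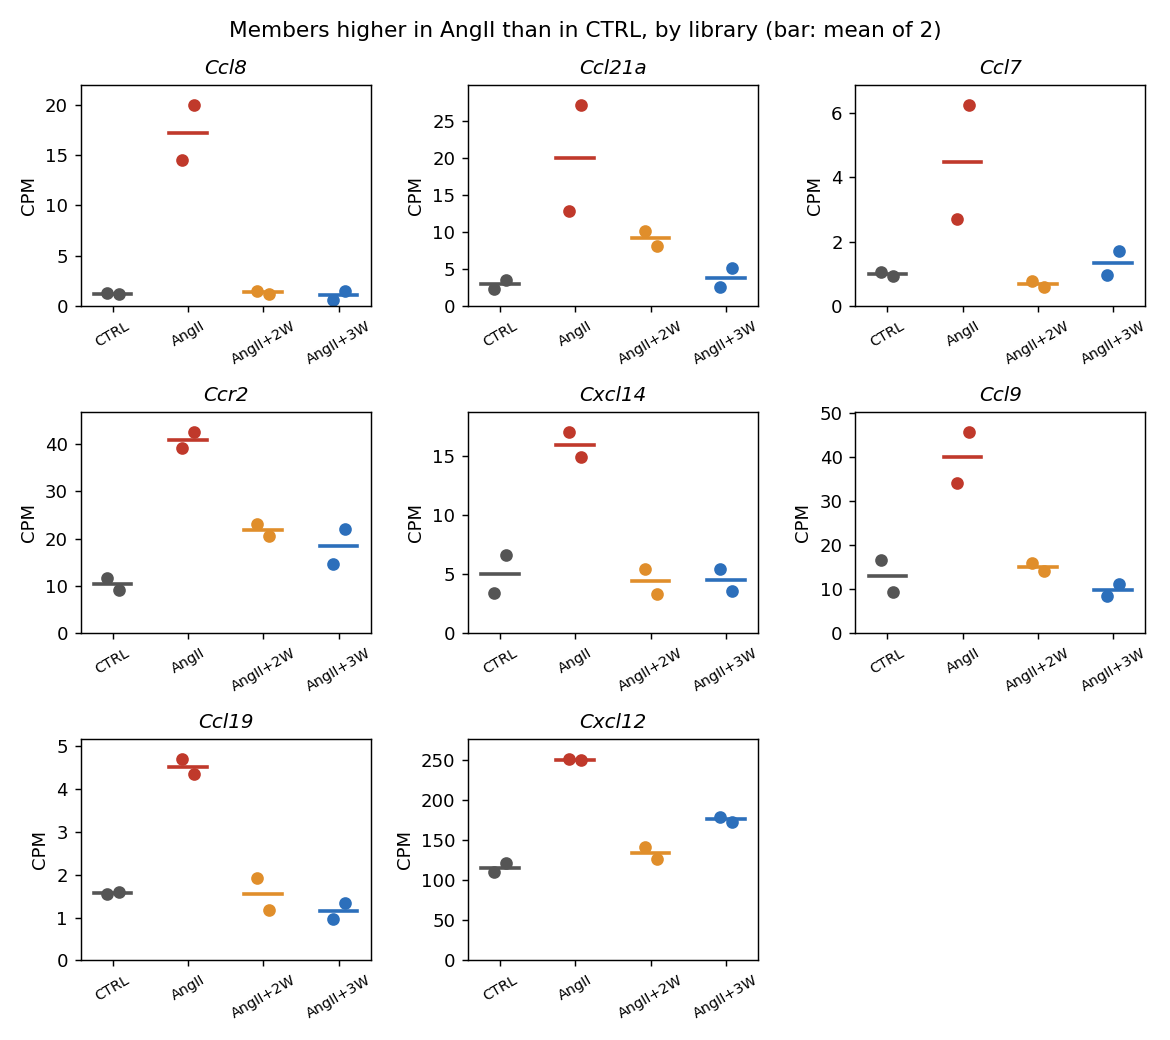
CPM of 8 of the 9 members higher in AngII than in CTRL, 1 panel for each gene, with the libraries as points and the mean of the 2 libraries of a group as a line, on axes that start at 0. Both AngII points lie above both CTRL points in every panel, and Ccr2 and Cxcl12 in AngII+2W and AngII+3W lie between the CTRL and AngII points.

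Monocyte-attracting CC ligands and the eosinophil attractant Ccl11 lie together on chromosome 11 (chr11:82035571-82116799, GRCm38) in the order Ccl2, Ccl7, Ccl11, Ccl12 and Ccl8. Of these 5, 2 rose in AngII, and the median log2 fold change was 1.76. Ccl8, a ligand of the monocyte chemoattractant protein family, was found in CTRL at 1.27 and 1.18, in AngII at 14.5 and 19.9, in AngII+2W at 1.49 and 1.24, and in AngII+3W at 0.591 and 1.504 CPM. The AngII libraries were far above all others, and the remaining 6 overlapped between groups. The fold change of Ccl8 in AngII against CTRL was 14.03 (log2 fold change 3.81, SE 0.38, FDR 0.0064), the highest of the called members. Ccl7, a ligand of Ccr2, was measured at 1.07 and 0.941 CPM in the CTRL libraries, 2.70 and 6.26 in the AngII libraries, 0.793 and 0.591 in those of AngII+2W and 0.968 and 1.72 in those of AngII+3W. Both AngII libraries of Ccl7 were above the other 6 (log2 fold change 2.15, SE 0.48, FDR 0.047).

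The other 3 ligands of this cluster did not pass the FDR threshold. Ccl12, another ligand of Ccr2, was at 0.341 and 0.800 CPM in the CTRL libraries and at 1.57 and 2.32 CPM in those of AngII, without overlap (log2 fold change 1.76, unadjusted p = 0.012, FDR 0.11). Counts of Ccl2, the best known monocyte attractant, were 36 and 28 in the CTRL libraries and 30 and 109 in those of AngII, so that the groups overlapped (log2 fold change 1.15, SE 0.60, FDR 0.34). Ccl11 was at 10.5 and 9.08 CPM in the CTRL libraries and at 9.39 and 10.6 CPM in those of AngII (log2 fold change 0.03, SE 0.26).

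The second cluster on chromosome 11 (chr11:83525778-83664683) holds Ccl5, Ccl9, Ccl6, Ccl3 and Ccl4, which attract monocytes, T cells and other leukocytes through Ccr1 and other receptors. Of the 3 tested, 1 rose in AngII. Ccl9, a ligand of Ccr1, was found in CTRL at 16.6 and 9.46, in AngII at 34.2 and 45.7, in AngII+2W at 16.1 and 14.1, and in AngII+3W at 8.55 and 11.1 CPM. The AngII libraries were the highest, with a log2 fold change of 1.62 against CTRL (SE 0.28, FDR 0.024). Its neighbour Ccl6, of the same subfamily, was measured at 23.6 and 11.9 CPM in the CTRL libraries, 34.4 and 62.6 in the AngII libraries, 21.004 and 18.4 in those of AngII+2W and 9.68 and 13.8 in those of AngII+3W. Groups CTRL and AngII did not overlap in Ccl6, but the libraries of each differed widely, and the test was not passed (log2 fold change 1.45, SE 0.38, FDR 0.074). Ccl5, a T cell attractant, had a log2 fold change of 0.21 with overlapping libraries.

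Among the 9 tested CC ligands of lymphoid and barrier tissue, 2 rose in AngII, Ccl21a and Ccl19, both ligands of Ccr7. Ccl19 was found in CTRL at 1.56 and 1.60, in AngII at 4.70 and 4.36, in AngII+2W at 1.91 and 1.18, and in AngII+3W at 0.968 and 1.34 CPM. The libraries of Ccl19 within CTRL and within AngII were close, and those of AngII were the highest (log2 fold change 1.52, SE 0.31, FDR 0.038). Ccl21a was measured at 2.24 and 3.58 CPM in the CTRL libraries, 12.8 and 27.1 in the AngII libraries, 10.1 and 8.11 in those of AngII+2W and 2.58 and 5.10 in those of AngII+3W (log2 fold change of AngII against CTRL 2.78, SE 0.46, FDR 0.021). Their receptor Ccr7 had a log2 fold change of -0.12 with overlapping libraries. The homeostatic ligands Ccl25, Ccl27a and Ccl28 had log2 fold changes of 0.28, -0.28 and 0.23, none past the threshold, and the eosinophil attractant Ccl24 one of 0.11 (FDR 0.90).

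The reads of Ccl21a are shared with near-identical copies, and its split between them is uncertain. Its transcript was 99.3% identical over its whole length to that of Ccl21d, a copy on the same chromosome. CTRL held 13 and 36 counts of Ccl21d, AngII 83 and 158, AngII+2W 0 and 0, and AngII+3W 24 and 38. Ccl21b had 48 and 66 counts in AngII+2W, where Ccl21d had none, 0 and 41 in AngII, and 0 in the libraries of CTRL and AngII+3W. Both copies had counts in the second AngII library. The 6 genes with a Ccl21 symbol were therefore also summed before the fit, an alternative chosen after the data were seen. Gm13304, 100% identical to the Ccl21d transcript over 96.2% of that transcript, was not part of this sum. The sum may thus miss reads of such copies. CTRL held 3.22 and 5.27 CPM of this sum, AngII 17.3 and 36.5, AngII+2W 12.4 and 11.8, and AngII+3W 4.09 and 7.36 CPM. It was higher in AngII than in CTRL (log2 fold change 2.66, SE 0.43, FDR 0.019), and in AngII+2W it was above both CTRL libraries without passing the test (log2 fold change 1.51, FDR 0.30). Ccl19 also has a near-identical relative, Gm2564, with 98.9% identity over 57.8% of its transcript.

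The CXC ligands were divided. None of the 4 ELR-motif ligands tested, which attract neutrophils through Cxcr2, and none of the 3 interferon-inducible genes, which belong to the family of Cxcr3 ligands, passed the threshold in AngII (FDR of at least 0.56 and 0.63). Cxcl9 was at 11.8 and 20.5 CPM in the CTRL libraries and at 12.8 and 17.3 CPM in those of AngII. The log2 fold change was 0.21 for the ELR-motif ligand Cxcl5 and -0.20 for the interferon-inducible Cxcl11, annotated as a polymorphic pseudogene, in both without overlap of the libraries. Of the 4 other CXC ligands tested, 2 rose. Cxcl12 was found in CTRL at 110.5 and 121, in AngII at 251 and 250.01, in AngII+2W at 142 and 126, and in AngII+3W at 179 and 173 CPM. The libraries of each group were close together, no group overlapped with another, and the AngII level was 2.16 times that of CTRL (log2 fold change 1.11, SE 0.13, FDR 0.0078).

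Cxcl14, a chemokine of epithelial and stromal cells, was measured at 3.41 and 6.63 CPM in the CTRL libraries, 17.0 and 14.9 in the AngII libraries, 5.46 and 3.33 in those of AngII+2W and 5.43 and 3.60 in those of AngII+3W. The AngII libraries alone stood above the rest, by a log2 fold change of 1.66 against CTRL (SE 0.37, FDR 0.047). Cxcl16, a membrane-bound ligand of Cxcr6, was at 7.16 and 6.59 CPM in the CTRL libraries and at 12.04 and 23.9 CPM in those of AngII (log2 fold change 1.39, FDR 0.080). Of Cxcl13, which attracts B cells through Cxcr5, CTRL held 57 and 43 counts, AngII 85 and 58, AngII+2W 52 and 31, and AngII+3W 68 and 3, and no difference passed the threshold.

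Of the receptors, Ccr2 rose in AngII and none of the 5 CXC receptors tested did. Ccr2, the receptor of classical monocytes, was found in CTRL at 11.6 and 9.13, in AngII at 39.2 and 42.5, in AngII+2W at 23.0 and 20.6, and in AngII+3W at 14.7 and 22.1 CPM. All 6 libraries of treated mice were above both CTRL libraries, and the AngII libraries were the highest (log2 fold change of AngII against CTRL 1.98, SE 0.22, FDR 0.0078).

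Ccr1 and Ccr2 lie with Ccr3, Ccr9 and Cxcr6 in 1 cluster on chromosome 9. Ccr1, the receptor of Ccl6 and Ccl9, was found in CTRL at 1.85 and 1.55, in AngII at 4.43 and 7.39, in AngII+2W at 2.71 and 3.49, and in AngII+3W at 0.968 and 2.36 CPM, which did not pass the test (log2 fold change 1.80, FDR 0.060). Cxcr4 was measured at 3.46 and 5.36 CPM in the CTRL libraries, 3.08 and 10.8 in the AngII libraries, 3.69 and 7.46 in those of AngII+2W and 3.12 and 2.36 in those of AngII+3W. Its AngII libraries enclosed those of CTRL (log2 fold change 0.66, SE 0.58, FDR 0.59). Cxcr2, the receptor of the ELR-motif ligands, had a log2 fold change of -0.16. Ccr10, the receptor of Ccl27a and Ccl28, had a log2 fold change of 1.19 without overlap of the libraries (FDR 0.38), and Ccr4, the receptor of Ccl22, one of -0.35 with overlap (FDR 0.71). Ccr6 had the lowest value of the members, -0.54 with an SE of 0.82.

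**Figure D3:**
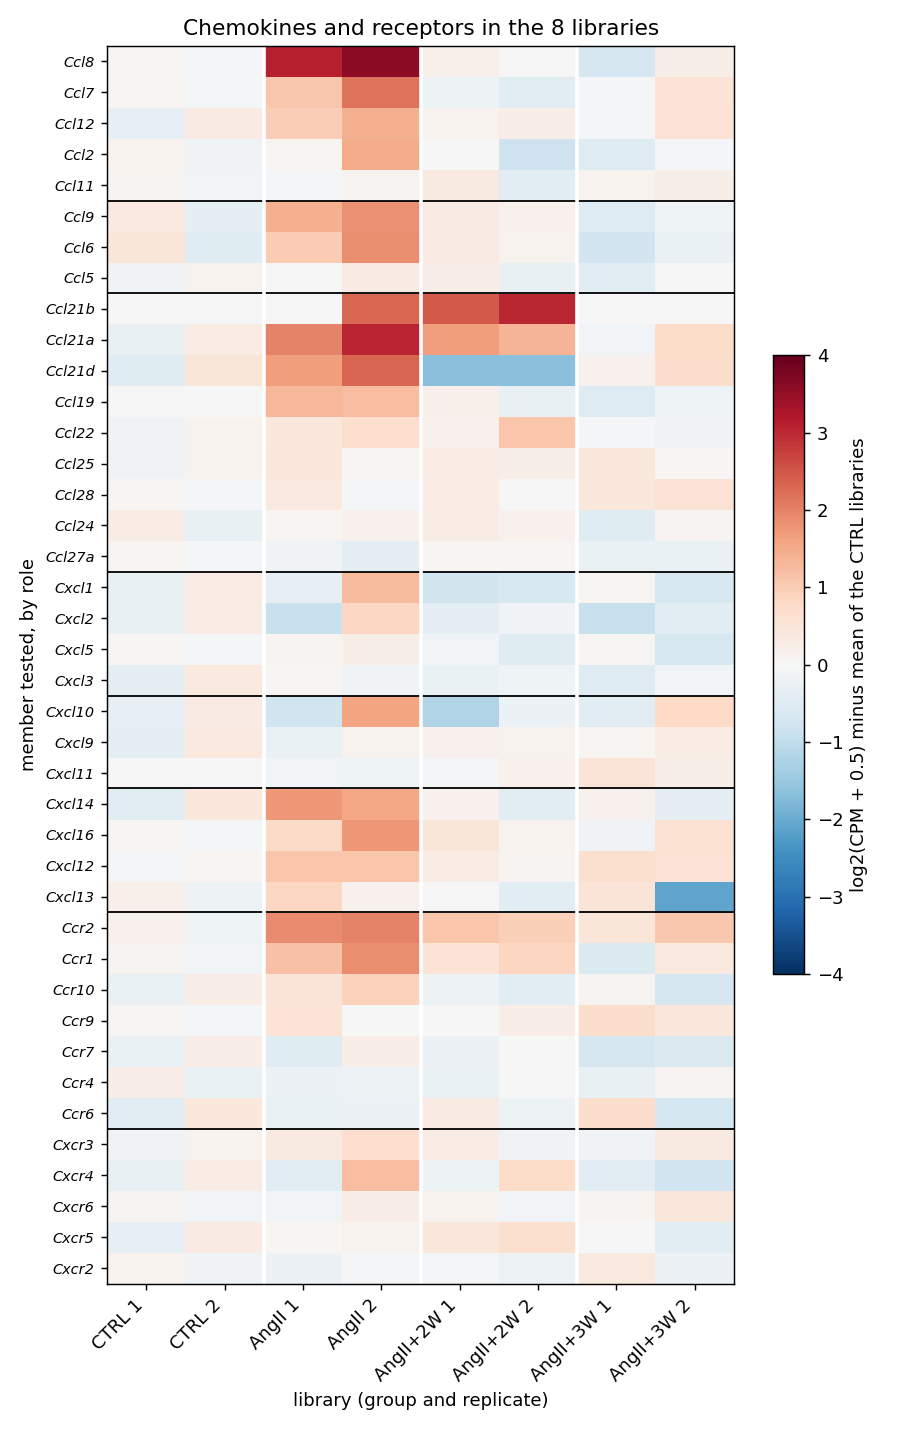
Each row is a member, for 40 of the 41 tested, grouped by role with black lines, and each column 1 library. Colour gives log2(CPM + 0.5) minus the mean of the CTRL libraries of that gene (red above, blue below), and the AngII columns are red for Ccl8, Ccl7, Ccl9, Ccl6, Ccl21a, Ccl19, Cxcl14, Cxcl16, Cxcl12, Ccr2 and Ccr1, while only the second AngII column is red for Ccl2, Cxcl1, Cxcl10 and Cxcr4.

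The sequences upstream of the start site were read for members with an entry among RefSeq promoters of GRCm38.p6. These windows of 250 bases were found for 32 of the 46 member symbols and for 7 of the members that rose (not for Ccl7). They were matched by symbol alone. The window of Ccl21b (chr4:42172870-42173119) belongs to another locus than the Ccl21b gene counted here, which lies on a scaffold. Printed first are 4 of the members that rose, chosen as the ligand with the highest fold change (Ccl8, chr11:82114935-82115184, plus strand), the ligand of the Ccr1 pathway (Ccl9, chr11:83578637-83578886, minus strand), the most abundant ligand (Cxcl12, chr6:117168285-117168534, plus strand) and Cxcl14 (chr13:56296552-56296801, minus strand). They are followed by 2 inflammatory CXC ligands that did not pass the test, Cxcl10 (chr5:92348890-92349139, minus strand) and Cxcl3 (chr5:90785851-90786100, plus strand). Each runs 5′ to 3′ on the strand of the gene and ends at the base before the start site. Capitals mark matches, on either strand, to the κB consensus of NF-κB or to the letters searched for AP-1 (TGANTCA), the interferon-gamma element GAS (TTCNNNGAA), the core of the interferon response element ISRE (GAAA and GAAA with 2 bases between) and PU.1 (GAGGAAG).
Ccl8: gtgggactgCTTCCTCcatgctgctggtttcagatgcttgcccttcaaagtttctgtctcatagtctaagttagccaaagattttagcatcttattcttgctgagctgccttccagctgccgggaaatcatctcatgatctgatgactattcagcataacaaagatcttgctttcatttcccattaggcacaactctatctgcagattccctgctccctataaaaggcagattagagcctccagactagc
Ccl9: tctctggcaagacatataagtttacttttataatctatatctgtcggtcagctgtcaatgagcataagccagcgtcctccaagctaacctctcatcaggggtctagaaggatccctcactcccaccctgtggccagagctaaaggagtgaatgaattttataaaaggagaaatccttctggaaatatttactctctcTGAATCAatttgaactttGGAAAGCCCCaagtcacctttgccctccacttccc
Cxcl12: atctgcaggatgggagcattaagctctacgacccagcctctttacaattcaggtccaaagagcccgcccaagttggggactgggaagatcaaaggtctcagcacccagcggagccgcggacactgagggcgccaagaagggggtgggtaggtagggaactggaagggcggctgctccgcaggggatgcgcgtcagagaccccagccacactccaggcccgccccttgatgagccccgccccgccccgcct
Cxcl14: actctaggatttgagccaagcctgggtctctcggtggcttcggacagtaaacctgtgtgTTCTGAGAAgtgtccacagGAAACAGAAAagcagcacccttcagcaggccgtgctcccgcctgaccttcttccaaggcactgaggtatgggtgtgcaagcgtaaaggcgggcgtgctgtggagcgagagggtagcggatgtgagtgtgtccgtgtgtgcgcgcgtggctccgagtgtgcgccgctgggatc
Cxcl10: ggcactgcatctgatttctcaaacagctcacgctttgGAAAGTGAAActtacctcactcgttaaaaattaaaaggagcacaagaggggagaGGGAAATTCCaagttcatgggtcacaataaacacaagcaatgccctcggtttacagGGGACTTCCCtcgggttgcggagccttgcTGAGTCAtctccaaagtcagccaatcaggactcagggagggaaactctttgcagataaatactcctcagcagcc
Cxcl3: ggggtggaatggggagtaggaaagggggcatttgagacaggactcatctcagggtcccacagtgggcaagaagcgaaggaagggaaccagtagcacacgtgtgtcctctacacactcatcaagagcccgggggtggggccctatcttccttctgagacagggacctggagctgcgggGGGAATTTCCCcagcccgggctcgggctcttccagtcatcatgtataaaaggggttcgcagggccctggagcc

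The 32 members had 36 windows, as 3 of them have more than 1 entry. The κB consensus was found in 7 of these 36 windows, each of another member, beside 3.90% of 32841 windows of all genes. The members that held it were Ccl9, Cxcl1, Cxcl2, Cxcl3, Cxcl10, Ccr3 and Ccr6, of which Ccl9 alone rose in AngII. In Cxcl1, Cxcl2 and Cxcl3 the same stretch matched on both strands, 1 base apart, and the other pairs of matches printed above do not overlap. The letters of AP-1 were found in 5 of the 36 windows (6.75% of all windows), those of PU.1 in 5 (10.6%), the ISRE core in 3 (2.98%) and GAS in 2 (7.02%). Of the members that rose, Ccl9 held AP-1 at 53 bases and κB at 35 bases before the start site, Cxcl14 held GAS and the ISRE core, Ccl19 the ISRE core, and Ccl8 and Ccl21a the PU.1 letters. Cxcl12 held none of the 5, as its lower-case line shows. A match describes letters in this window, and binding was not measured.

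The libraries of a group differed in the members. The second AngII library was above the first in 31 of the 41 members, with a median difference of 0.34 on the scale of log2(CPM + 0.5), beside 51.8% of all genes and a median of 0.01. No member was lower in the second library by more than 1 on this scale. In 8 members the second library was higher by more than 1, beside 1.39% of all genes. Among these, Cxcl10 had 11 and 110 counts, Cxcl1 11 and 59, Cxcl2 1 and 28, Cxcr4 57 and 228, and Ccl2 30 and 109 counts in the first and the second AngII library. Of the 41 members, the second library was above the first in 21 for CTRL, 14 for AngII+2W and 25 for AngII+3W, beside 48.7%, 50.3% and 48.3% of all genes. In AngII+3W the median difference was 0.32, close to that in AngII, beside -0.0032 over all genes. There, 3 members differed by more than 1. Of these, 1 was higher in the second library, beside 2.19% of all genes. The other 2 were lower, for which the share of all genes is not given here. The ratio of the second to the first AngII library was 0.996 for Cxcl12, 0.928 for Ccl19, 0.875 for Cxcl14 and 1.08 for Ccr2, all of which rose, and 8.78 for Cxcl10, which did not pass the test.

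**Figure D4:**
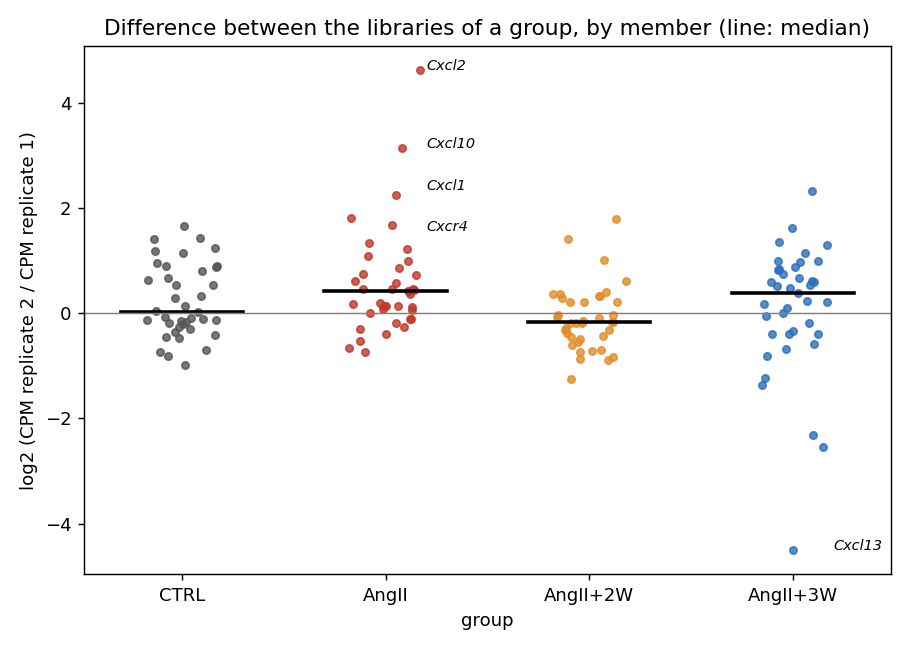
For 39 tested members, the log2 ratio of CPM in the second over the first library of each group (the Ccl21b and Ccl21d copies, at 0 in some libraries, are left out), with a black line at the median and a grey line at 0. In AngII most points lie above 0, with Cxcl2, Cxcl10, Cxcl1 and Cxcr4 the highest, and in AngII+3W Cxcl13 is the lowest.

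Some leukocyte markers rose in AngII as members did, and their part in these results was not tested. The median log2 fold change in AngII against CTRL was 1.63 for macrophage and 1.30 for pan-leukocyte markers. It was -0.02 for neutrophil, -0.06 for T cell and -0.30 for B cell markers. In whole tissue, fewer cells of a type and less RNA per cell cannot be told apart. Of 9 macrophage markers, 5 were higher in AngII than in CTRL and 0 lower, and CTRL held 245 to 362 CPM of them in sum, AngII 578 and 836, AngII+2W 302 to 368, and AngII+3W 193 and 352 CPM. The second AngII library was the higher of its group here too. Of 5 pan-leukocyte markers 3 were higher (summed level of CTRL 72.4 to 72.9 CPM, of AngII 149 and 234 CPM). Their sum was 97.0 and 109 CPM in AngII+2W and 77.6 and 98.6 CPM in AngII+3W, above both CTRL libraries. Of 6 fibroblast markers 2 were higher (summed level of CTRL 1292 to 2140 CPM, of AngII 7997 and 12941 CPM). Of 5 lymphatic endothelial markers 2 were higher, Pdpn and Mmrn1, while Prox1, which defines these cells, had a log2 fold change of 0.03. Of 4 monocyte markers 1 was higher, Chil3 (log2 fold change 2.27, FDR 0.040), and the median of the 4 was 1.37. Their sum includes the fibronectin gene Fn1, which is not particular to monocytes, and was not read as a level of monocytes. It was 1618 to 1785 CPM in CTRL libraries and 2653 and 3909 CPM with AngII. At AngII+2W it was 2544 and 3029 CPM, and at AngII+3W 552 and 1212 CPM. Of 5 dendritic cell markers 2 were higher, Flt3 (1.57, FDR 0.029) and Clec9a (2.21, FDR 0.041), with a median of 1.30, and their sum was 42.2 to 54.7 CPM in CTRL libraries and 59.0 to 59.3 CPM with AngII. None of the markers of neutrophils (4 tested), T cells (7) or B cells (5) passed the FDR threshold, and the neutrophil marker Ly6g had 2 counts over all libraries.

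The second question was whether members remained different from CTRL after the infusion. In AngII+2W, 0 of the 41 members passed the FDR threshold in edgeR's quasi-likelihood test, as did 0 of all genes. DESeq2 called 3 members (Ccl21a, Ccl21d and Ccr2) and edgeR's likelihood ratio test 4. The share of all genes called by these tests is not given here. Their counts were therefore not read as a result about the members. At an unadjusted p below 0.05 in the quasi-likelihood test there were 4 members. Of these 4, 3 were the Ccl21a, Ccl21b and Ccl21d copies, and 3 were higher and 1 lower, beside 4.52% and 6.18% of all genes. Ccr2 was 2.10 times its CTRL level (log2 fold change 1.07, SE 0.22, FDR 0.20). Without either AngII+3W library, Ccr2 passed the threshold in this comparison. The log2 fold change was above 0 in 26 of the 41 members (50.0% of all genes), with a median of 0.10 beside -0.00011 over all genes. Both AngII+2W libraries were above both CTRL libraries in 10 members and below them in 4 (21.7% and 22.2% of all genes).

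In AngII+3W, 0 members passed against CTRL (0.0175% of all genes were higher and 0.268% lower). DESeq2 called 2 (Ccr2 and Cxcl12) and the likelihood ratio test 1 (Cxcl12), again without a share of all genes beside them. In the quasi-likelihood test 3 members, all higher, had an unadjusted p below 0.05. By this rule 5.34% of all genes were higher and 7.18% lower. Cxcl12 was 1.52 times its CTRL level (log2 fold change 0.60, SE 0.13, FDR 0.10) and Ccr2 1.77 times (log2 fold change 0.83, SE 0.22, FDR 0.17). Both AngII+3W libraries were above both CTRL libraries in 8 members, Cxcl12 and Ccr2 included, and below them in 5 (19.8% and 18.3% of all genes). The log2 fold change was above 0 in 19 members (53.6% of all genes), with a median of -0.03. With the second AngII+3W library left out, 1 member passed, Cxcl17, whose counts come from the library with skeletal muscle markers. The comparisons with CTRL use the same CTRL libraries and are not independent of each other.

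The third question was which members fell between the end of the infusion and the later time points. The comparisons with AngII share the AngII libraries, which the first comparison uses too. In AngII+3W, 4 members were lower than in AngII and 0 higher, beside 1.32% and 0.285% of all genes. Ccl8 fell the most (log2 fold change -4.03, SE 0.39, FDR 0.015), followed by Ccl9 (-2.02, SE 0.29, FDR 0.027), Ccl19 (-1.96, SE 0.32, FDR 0.039) and Ccr2 (-1.15, SE 0.21, FDR 0.048). The log2 fold change was above 0 in 9 of the 41 members (54.0% of all genes), with a median of -1.08 against 0.04 over all genes. At an unadjusted p below 0.05, 17 members were lower and 0 higher (10.4% and 7.41% of all genes). Both AngII+3W libraries were below both AngII libraries in 22 members and above them in 3 (24.2% and 24.8% of all genes). Ccl21a and Ccl6 were close to the threshold (log2 fold changes -2.38 and -2.05, FDR 0.051 for both). With the Ccl21 copies summed, the log2 fold change was -2.23, with an FDR of 0.051.

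**Figure D5:**
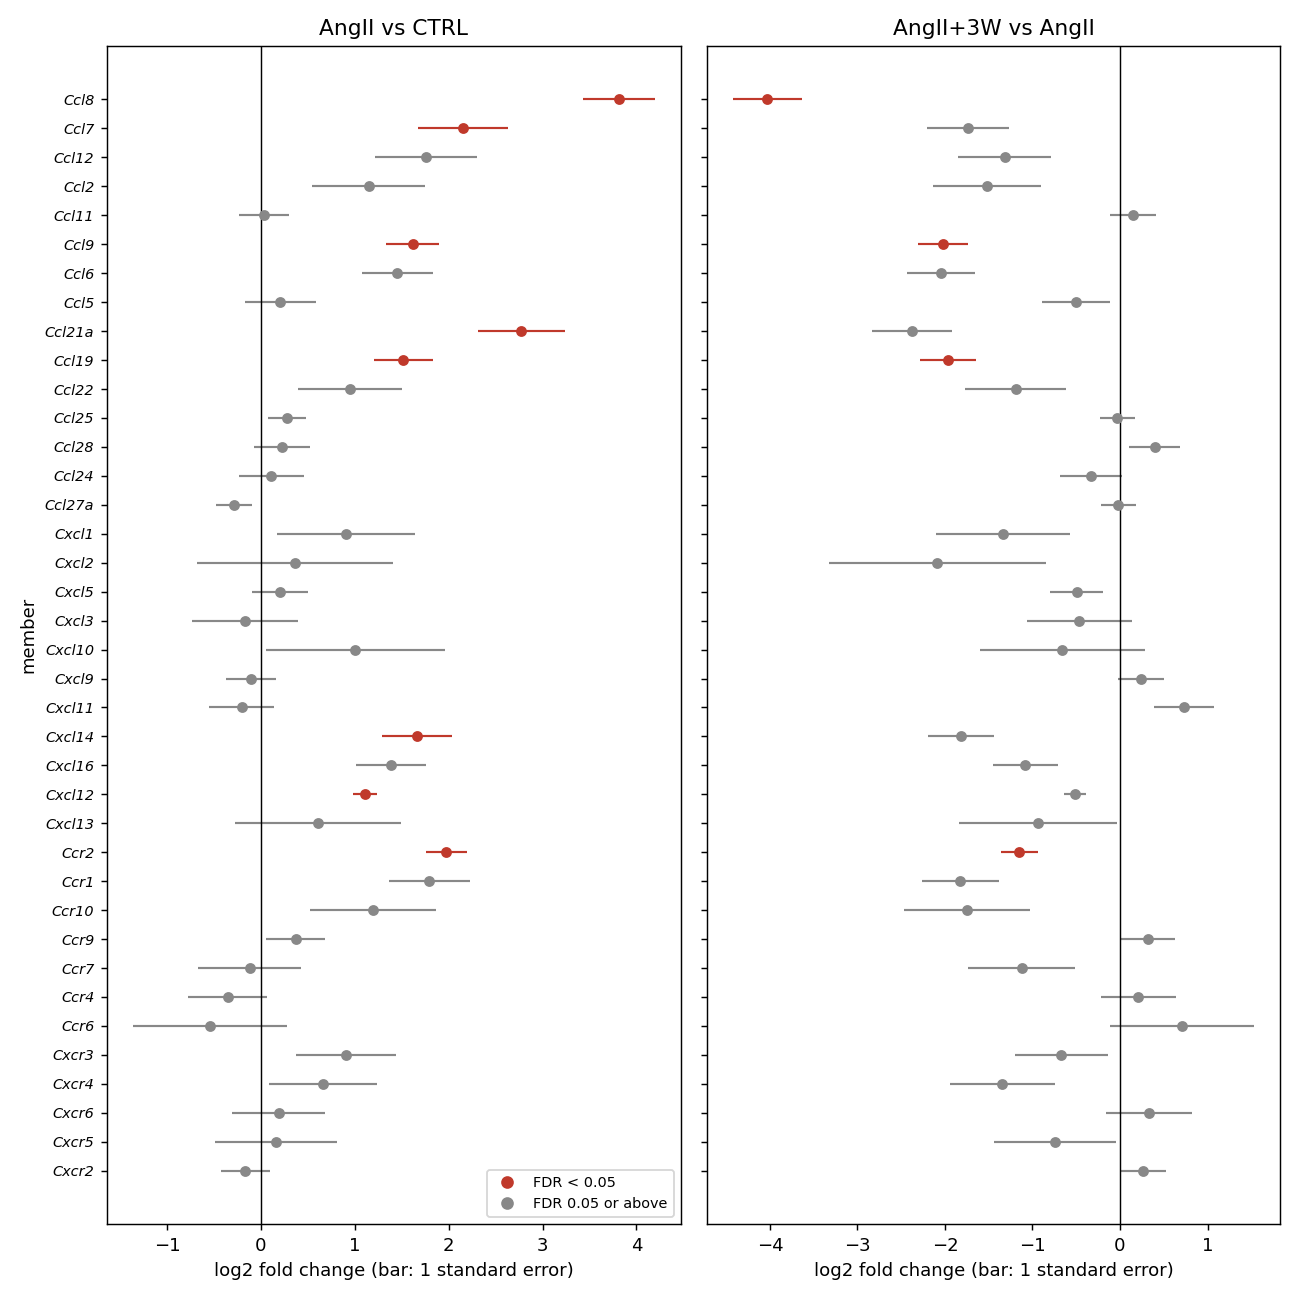
Log2 fold change (points) with 1 standard error (bars) of 38 tested members for AngII against CTRL (left) and AngII+3W against AngII (right), in the order of their roles and without the Ccl21b and Ccl21d copies, red where FDR is below 0.05. Ccl8 lies at 3.81 on the left and at -4.03 on the right, and Ccl11 close to 0 in both. Both panels use the AngII libraries.

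This count too rested on single libraries. Without the second AngII library 0 members passed, without either CTRL library 2, without the first AngII, either AngII+2W or the first AngII+3W library 1 (Ccl8 each time), and without the second AngII+3W library 9. Ccl8 lost the call only without the second AngII library (FDR 0.11), among the libraries left out. A fit of the AngII and AngII+3W libraries alone called 0 members.

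In AngII+2W, 2 members were lower than in AngII and 0 higher, beside 0.140% and 0.0233% of all genes. Ccl8 was lower by a log2 fold change of -3.65 (SE 0.38, FDR 0.029). The other was the Ccl21d copy, at 0 counts in both AngII+2W libraries (FDR 0.045). With the Ccl21 copies summed the log2 fold change was -1.15 (SE 0.40, FDR 0.24), and Ccl8 alone was called in that fit. Without any 1 of the CTRL, AngII or AngII+2W libraries 0 members passed, and the FDR of Ccl8 then reached 0.44 at most, while 6 members passed without either AngII+3W library. Cxcl12 had a log2 fold change of -0.90 (SE 0.13, FDR 0.057) and Ccl7 of -2.68 (SE 0.50, FDR 0.072). At an unadjusted p below 0.05, 16 members were lower and 0 higher (8.45% and 6.57% of all genes). The log2 fold change was above 0 in 10 members (49.6% of all genes), with a median of -0.73. Both AngII+2W libraries were below both AngII libraries in 21 members and above them in 5 (27.5% and 26.8% of all genes).

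Between AngII+3W and AngII+2W, 0 members and 0 of all genes passed in edgeR's quasi-likelihood test. DESeq2 called 1 member (Ccl21d) and the likelihood ratio test 2 (Ccl21b and Ccl21d), also without a share of all genes beside them. In the quasi-likelihood test 5 members had an unadjusted p below 0.05, 2 of them higher and 3 lower (4.62% and 4.22% of all genes). These were the Ccl21a, Ccl21b and Ccl21d copies, Ccl22 and Cxcl12. Cxcl12 was at 142 and 126 CPM in AngII+2W and 179 and 173 CPM in AngII+3W, without overlap (log2 fold change 0.39, SE 0.13, FDR 0.42). Both AngII+3W libraries were above both AngII+2W libraries in 7 members and below them in 12 (20.7% and 19.7% of all genes), and the log2 fold change was above 0 in 21 (52.1% of all genes).

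Genes of the pathway with other names were taken from a list of 32, of which 31 were tested. In AngII, 3 were higher than in CTRL and 0 lower, beside 2.90% and 2.20% of all genes. All 3 were transducers of chemoattractant signals in leukocytes. These were Dock2, an activator of Rac (log2 fold change 1.02, FDR 0.037), Pik3cg, a G protein-activated phosphoinositide 3-kinase (1.35, FDR 0.036), and Prex1, another activator of Rac (1.03, FDR 0.045). The fractalkine receptor Cx3cr1 was at 3.61 and 4.70 CPM in the CTRL libraries and at 9.50 and 11.99 CPM in those of AngII (log2 fold change 1.37, FDR 0.053). In AngII+3W, 2 of the 31 were lower than in AngII and 0 higher, beside 1.32% and 0.285% of all genes. Ackr3, the scavenging receptor of Cxcl12, was found in CTRL at 69.0 and 56.4, in AngII at 70.5 and 73.1, in AngII+2W at 52.2 and 46.0, and in AngII+3W at 36.7 and 34.9 CPM. Its level in AngII+3W was below all other libraries (log2 fold change against AngII -1.004, FDR 0.025, and against CTRL -0.81, FDR 0.066). Pf4, a CXC chemokine of platelets and macrophages, fell from 12.6 and 16.8 CPM to 7.10 and 6.88 CPM (log2 fold change -1.08, FDR 0.042). In the other comparisons 0 of these genes passed. The median over the 31 in AngII against CTRL was 0.31, beside -0.01 over all genes.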

How the data were processed

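RNA from 8 libraries of mouse aorta (2 for each group, 2 mice pooled in each) was analysed. The deposited values are expected counts per gene and library, which the authors estimated with Salmon against mouse cDNA of GRCm38 and summed over transcripts. The values are whole numbers without normalization, and the totals are 18130441 to 21498200 counts. Ribosomal RNA was depleted, and strandedness is not given in the sources used here. Near-identical copies can share such estimated counts. The labels gave groups and replicate numbers. Replicates are pools of different mice, so p-values judge a group difference against the spread between pools, estimated over all groups together. The variation between single mice was not measured.

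Members and lists were chosen with earlier results of these data known. The members are named, except 1 that is not reported here and stays in the counts. Full values are given for members with FDR below 0.05 in any comparison and for the 3 ligands and 3 receptors with the highest length-scaled level.

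All genes were fitted with edgeR 4.0.16 in R 4.3.3 (filterByExpr, TMM, quasi-likelihood F test in its older form, 1 coefficient for each group, 4 residual degrees of freedom), with two-sided p-values adjusted by Benjamini-Hochberg over 17182 genes (FDR, threshold 0.05). CPM values use TMM library sizes. The scripts were tested on simulated data. No exact permutation test was made, since its smallest p with 2 against 2 libraries is 0.33. Alternatives were DESeq2 1.42.0 and its size factors, library totals, other count minimums, the likelihood ratio test, the newer quasi-likelihood form, a replicate block, fits of 2 groups, leaving out each library and, added after the data were seen, summed Ccl21 copies. Exon lengths came from GENCODE on GRCm38, promoters from RefSeq (GRCm38.p6), and transcripts were compared with BLAST 2.17.0. Replicates differed beyond sampling noise, with a chi-square per degree of freedom of 12.2 to 84.5.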

Additional observations from a re-analysis of the deposited data

Results flagged for a closer look

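For 6 values the change with AngII differed between time points, by the test of the difference itself (edgeR quasi-likelihood test, Benjamini-Hochberg adjustment). Ccl8 was lower in AngII+2W than in AngII by a log2 fold change of -3.65, and in AngII+3W by -4.03, and was lower in both libraries of each group. The Ccl21d copy had a fitted value of -9.89 in AngII+2W against AngII. It rests on 0 counts in both AngII+2W libraries, depends on how reads were divided among near-identical copies, and is no bound on a fold change. Against AngII, AngII+3W was lower by -2.02 for Ccl9, by -1.96 for Ccl19 and by -1.15 for Ccr2, in both libraries for each gene. These values use the AngII libraries, and the part of leukocyte content was not tested.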

How the results depend on the processing

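With 2 libraries in each group the counts of members called moved with the test, while none of the 15 called fold changes turned direction under the alternatives run for them. In AngII against CTRL (9 called), the likelihood ratio test called 15, and the other fits without a library left out called 7 to 13. Leaving out 1 library gave 0 to 13, the lone library of a group being assumed to vary like the others. In AngII+2W against CTRL (0), DESeq2 called 3 and the likelihood ratio test 4, with 0 to 1 on leaving out a library. In AngII+3W against CTRL (0), these tests called 2 and 1, with 0 to 1. In AngII+2W against AngII (2), 1 was called with library totals, with a minimum of 10 counts in every library or with the Ccl21 copies summed, 7 with every gene of at least 1 count, and 10 by DESeq2, the likelihood ratio test or the fit of 2 groups, with 0 to 6 on leaving out a library. In AngII+3W against AngII (4), 7 were called with either other count minimum, 11 by DESeq2, 12 by the likelihood ratio test and 0 by the fit of 2 groups, with 0 to 9. In AngII+3W against AngII+2W (0), DESeq2 called 1 and the likelihood ratio test 2, with 0 to 0. The cause was not tested, and the share of all genes called under each alternative is not given beside these counts. These 15 fold changes under each alternative gave 267 values, of which 183 still passed the threshold and 84 did not. Of 188 mean CPM values under another scaling, 185 moved by less than the spread between replicates.

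Replicate numbers share no animals, and the numbers were therefore not taken to pair libraries. Differences between the libraries of a group correlated between groups by -0.015 to 0.35. Whether same-numbered libraries share another factor was not tested. With a replicate block, 7 members were called in AngII against CTRL (among them Ccl8, Ccl9, Ccl21a, Ccl21d, Ccr2 and Cxcl12), 2 in AngII+2W against AngII and 3 in AngII+3W against AngII, and 0 in the other comparisons.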
